A study of Mus musculus with 4 samples.

Results

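The metallothioneins and zinc transporters described here are 8 genes: the metallothionein genes Mt1 and Mt2, the metal-sensing transcription factor gene Mtf1, the exporter genes Slc30a1 and Slc30a10 and the importer genes Slc39a4, Slc39a8 and Slc39a10. They were followed through every probe set annotated to 1 of them alone, 17 probe sets in all, out of 18193 genes that had such a probe set. Transcript levels were measured on Affymetrix mouse arrays. The cells were LSK cells, marrow cells without lineage markers that carry c-Kit and Sca1, a fraction that holds stem cells and multipotent progenitors. They came from femurs of mice labelled WT B6/129, and all of them carried a c-Myc-eGFP fusion protein, by whose level they were sorted. The Hi group (high c-Myc-eGFP) had 2 arrays and the Lo group (low c-Myc-eGFP) had 2 arrays, and no treatment, age, or number of mice is given in the labels. What drives the fusion protein and whether replicates came from separate mice is not given either, so the spread between the 2 arrays of a group may be technical.

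Zinc is needed by a large number of proteins but harmful when free in excess. Metallothioneins are small cysteine-rich proteins that bind zinc, copper and cadmium. Mtf1 encodes a zinc finger factor that senses zinc, binds metal response elements (MREs) in promoters and activates Mt1, Mt2 and Slc30a1. Transporters of the Slc30 (ZnT) family move zinc out of the cytosol, either out of the cell or into organelles, and those of the Slc39 (ZIP) family move it into the cytosol. Metallothionein genes are also known to respond to glucocorticoids and oxidative stress.

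The 8 genes were chosen by their log2 intensities in Hi against Lo, so their values are a description and carry no test. In Hi cells Mt1 and Mt2 were brighter, and so was the importer gene Slc39a8. The exporter gene Slc30a1 was dimmer in Hi on its brighter probe set. Slc39a4 and the brightest probe sets of Mtf1 and Slc39a10 overlapped between the groups, and Slc30a10 gave no signal above the dim limit. Of the 17 probe sets, 11 had both Hi values above both Lo values and 1 had them below, while the groups overlapped in 5. Of those above, 1, a Slc30a10 probe set, was under the dim limit on all 4 arrays. Over all 45037 probe sets the shares were 29.3% above and 22.0% below, and nothing is read from this comparison because the genes were picked from the same contrast. With 1 probe set for each gene, the brightest, the 8 genes divided into 3 with Hi above, 1 with Hi below and 4 with overlap, beside 30.0% above and 25.4% below over the brightest probe sets of all genes. The median difference of Hi minus Lo was 0.40 over the 17 probe sets and 0.04 over all probe sets, on the log2 scale.

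Promoter sequences are shown for the genes whose groups did not overlap on the brightest probe set and whose promoter is a classical MTF1 target. They are the 250 bases before the start of a RefSeq transcript, 5′ to 3′ on the strand of the gene, from RefSeq with build GRCm38.p6. Capitals mark matches to the core of the metal response element on either strand. The stretches are chr8:94178839-94179088 for Mt1, chr8:94172368-94172617 for Mt2 and chr1:191906531-191906780 for Slc30a1, all on the plus strand.
Mt1: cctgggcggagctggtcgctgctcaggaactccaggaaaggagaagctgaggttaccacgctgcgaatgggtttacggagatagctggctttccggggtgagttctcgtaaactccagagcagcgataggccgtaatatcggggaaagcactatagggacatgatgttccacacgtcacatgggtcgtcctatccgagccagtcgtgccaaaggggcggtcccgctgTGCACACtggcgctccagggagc
Mt2: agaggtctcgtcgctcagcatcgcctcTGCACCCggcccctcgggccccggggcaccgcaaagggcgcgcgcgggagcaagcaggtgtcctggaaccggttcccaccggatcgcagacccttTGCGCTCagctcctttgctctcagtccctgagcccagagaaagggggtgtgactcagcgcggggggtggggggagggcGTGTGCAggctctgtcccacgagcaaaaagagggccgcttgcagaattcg
Slc30a1: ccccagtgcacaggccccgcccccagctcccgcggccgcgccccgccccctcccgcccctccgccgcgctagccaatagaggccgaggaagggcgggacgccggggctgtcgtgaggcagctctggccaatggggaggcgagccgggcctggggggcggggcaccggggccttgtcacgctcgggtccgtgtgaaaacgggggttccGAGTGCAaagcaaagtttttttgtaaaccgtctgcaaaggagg

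The core was searched as TGCACNC or TGCGCNC on both strands, in windows of 250 bases before and 50 bases after the start. Of the 8 genes, 7 had a window and there were 9 windows, since Slc39a8 and Slc39a10 had 2 each. The Mt2 window held 4 matches, a count reached by 0.517% of all 32851 promoter windows. The Mt1 and Slc30a10 windows held 3 each, reached by 1.97% of windows, and that of Slc30a1 held 2, reached by 7.11%. In Mt1 the matches began at bases -23, 3 and 21 from the start, and in Slc30a1 at -43 and 31. Those at 3, 21 and 31, and that of Mt2 at 5, lie after the start used here and outside the printed stretches. In Slc30a10, 2 of the 3 matches overlapped on opposite strands, at -233 and -232. The second window of Slc39a8 held 1 match, which 25.7% of windows had at least once, while the windows of Mtf1 and Slc39a10 held 0. The E-box CACGTG, a sequence that Myc with its partner Max can bind, was searched in the same windows. It occurred in the second Slc39a8 window, at base -71, and in none of the other 8, and 7.15% of all windows held it. The antioxidant response core TGACNNNGC occurred in Mt2, Slc30a1 and the first Slc39a8 window, against 12.4% of all windows. A match describes these letters and is not a measured binding site, and some genes start elsewhere in other annotated transcripts. In the gene table Mt1 begins at 94178883, Slc30a1 at 191906697 and Slc39a8 at 135816882, each upstream of the starts used here. For Slc30a1 that start was 191906781, and for Slc39a8 the starts were 135825279 and 135825657. The E-box and the element core of Slc39a8 therefore lie inside the annotated gene, not at its outermost start. The start that these cells use was not measured. A start on either side would shift the window and the positions, and matches outside a window were not counted.

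**Figure D1:**
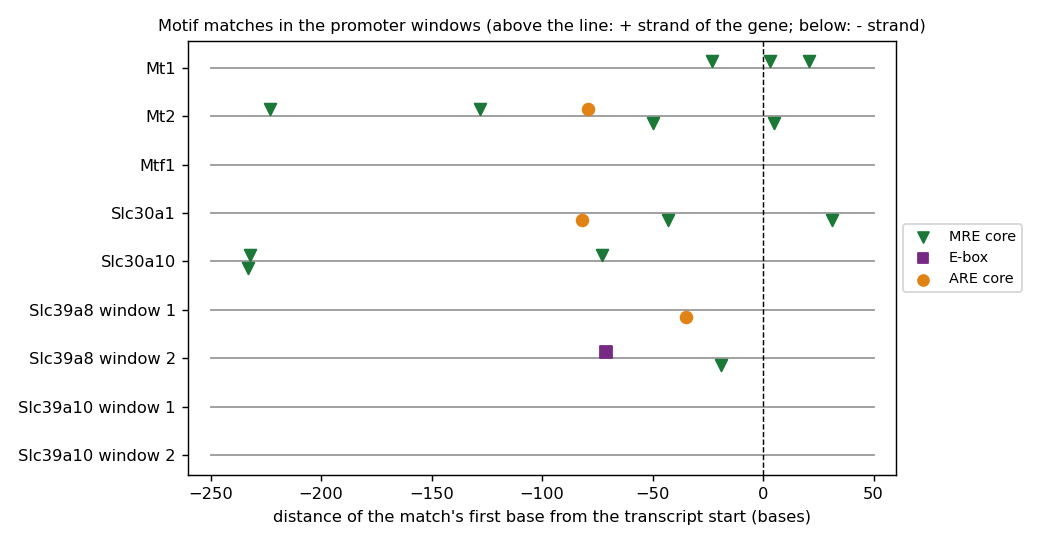
Matches to 3 short motifs in the 9 promoter windows, placed by the distance in bases of their first base from the transcript start (dashed line). Triangles are metal response element cores, circles antioxidant cores and the square an E-box. Mt2 carries 4 element cores, Mt1 and Slc30a10 3 each, and the Mtf1 and Slc39a10 windows none.

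Mt2 (chromosome 8, 94172618 to 94173567 in GRCm38.p6) had the largest difference of the 17 probe sets. Its only probe set, 1428942_at, had log2 intensities of 11.56 and 11.61 on the Hi arrays, against 6.2 and 8.32 on the Lo arrays. Both Hi arrays were close together and both Lo arrays were far below them, but the Lo arrays were also far apart. The means were 11.58 ± 0.03 in Hi and 7.26 ± 1.5 in Lo (SD of 2 arrays in each group), and the difference was 4.32 ± 0.76 (SE of the fit), 20.0-fold. The size of this fold rests on the Lo arrays: without Lo replicate 1 the difference was 3.26, or 9.58-fold, and without Lo replicate 2 it was 5.38, or 41.6-fold. At its lowest the Hi signal still exceeded the highest Lo signal by 3.24.

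Mt1 (chromosome 8, 94178883 to 94180327) lies next to Mt2. Its brighter probe set, 1422557_s_at, had 11.38 and 11.13 in Hi, against 8.54 and 8.80 in Lo. Here the arrays of each group were close, and the groups were separated by 2.33. The means were 11.25 ± 0.18 in Hi and 8.67 ± 0.19 in Lo (SD of 2 arrays in each group), a difference of 2.58 ± 0.18 (SE), or 6.0-fold. It lay between 2.45 and 2.72 when single arrays were left out. The suffix of this probe set marks probes that can match transcripts of more than 1 gene, so signal from a near-identical metallothionein cannot be separated from that of Mt1. The other Mt1 probe set, 1451612_at, was near the dim limit, with 5.34 and 5.43 in Hi, against 5.0 and 4.96 in Lo, and differed by 0.40. The mean of both probe sets differed by 1.49.

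The dim limit is the highest signal on each array among 27 bacterial controls whose transcript had evidently not been spiked in. It lay between 4.74 and 4.87 on the 4 arrays, and a probe set at or under it cannot be told from background. Of the 17 probe sets, 14 were above it on all 4 arrays, 1 on some of them and 2 on 0. In bulk samples of this kind, a smaller share of cells with a transcript and less of it in each cell cannot be told apart.

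**Figure D2:**
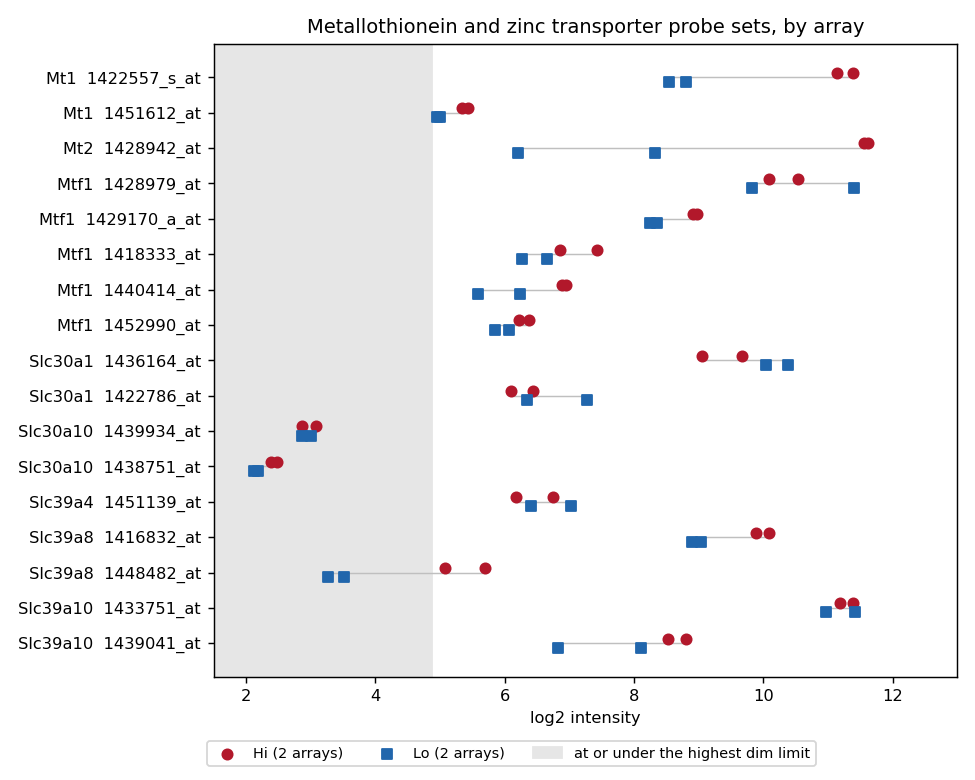
Log2 intensity of each of the 17 probe sets on the 4 arrays, with Hi as circles and Lo as squares, and the range at or under the highest dim limit in grey. The bright probe sets of Mt1 and Mt2 are separated by 2.33 and 3.24 between the groups, while both Slc30a10 probe sets lie in the grey range.

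Mtf1 (chromosome 4, 124802549 to 124849800), whose protein drives the metallothionein genes, was measured by 5 probe sets that did not give 1 answer. The brightest, 1428979_at, had 10.08 and 10.53 in Hi, against 11.40 and 9.82 in Lo. The Lo arrays stood on both sides of the Hi arrays, and the difference of -0.30 ± 0.60 (SE) turned to 0.49 without Lo replicate 1 and was -1.09 without Lo replicate 2. The other 4 probe sets were brighter on both Hi arrays than on both Lo arrays. Of these, 1429170_a_at had 8.98 and 8.91 in Hi, against 8.24 and 8.35 in Lo, a difference of 0.65 ± 0.14. The probe set 1440414_at had 6.95 and 6.88 in Hi, against 5.59 and 6.24 in Lo, a difference of 1.0 ± 0.26. The remaining 2 differed by 0.69 for 1418333_at and 0.35 for 1452990_at. Mtf1 was the only 1 of the 8 genes with probe sets of both signs, and the mean of its 5 probe sets differed by 0.48.

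The exporter gene Slc30a1 (chromosome 1, 191906697 to 191913248), whose product ZnT1 carries zinc out across the plasma membrane, stood in the opposite direction to Mt1 and Mt2. Its probe set 1436164_at had 9.05 and 9.67 in Hi, against 10.04 and 10.38 in Lo. Both Hi arrays were below both Lo arrays, with a gap of 0.37 that was smaller than the distance between the Hi arrays. The means were 9.36 ± 0.44 in Hi and 10.21 ± 0.24 in Lo (SD of 2 arrays in each group), a difference of -0.85 ± 0.28 (SE), and Lo was 1.80-fold above Hi. Leaving out single arrays gave -1.16 to -0.54. The dimmer probe set 1422786_at had 6.10 and 6.43 in Hi, against 6.35 and 7.28 in Lo. These groups overlapped, and the difference was -0.55 ± 0.37, or -0.09 without Lo replicate 2.

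Slc30a10 (chromosome 1, 185454848 to 185468762) encodes a cell surface transporter known mainly for exporting manganese. Its 2 probe sets never exceeded the dim limit, with values from 2.39 to 3.08 in Hi and from 2.13 to 3.0 in Lo. No fold is given, since neither group was above background.

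Slc39a8 (chromosome 3, 135816882 to 135888572) encodes ZIP8, an importer of zinc that also carries manganese, iron and cadmium. Its bright probe set 1416832_at had 10.09 and 9.89 in Hi, against 9.04 and 8.89 in Lo. The arrays of each group were close and the groups were apart by 0.85. The means were 9.99 ± 0.14 in Hi and 8.97 ± 0.11 in Lo (SD of 2 arrays in each group), a difference of 1.02 ± 0.16 (SE), or 2.03-fold, and it stayed between 0.92 and 1.12 with single arrays left out. The second probe set, 1448482_at, had 5.07 and 5.69 in Hi, against 3.51 and 3.27 in Lo. It was under the dim limit on both Lo arrays, so it was at least 1.54-fold higher in Hi.

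Slc39a10 (chromosome 1, 46807544 to 46925776) encodes ZIP10, a plasma membrane importer that is important in B cell development, and MTF1 is known to repress it in mouse cells. Its bright probe set 1433751_at had 11.19 and 11.39 in Hi, against 11.41 and 10.96 in Lo. The Lo arrays lay on either side of both Hi arrays, and the difference, 0.11 ± 0.22 (SE), lay within the replicate spread. The other probe set, 1439041_at, had 8.81 and 8.52 in Hi, against 8.10 and 6.83 in Lo. Both Hi arrays were above both Lo arrays, with a difference of 1.2 ± 0.48; leaving out Lo replicate 2 gave 0.56, and leaving out Lo replicate 1 gave 1.84. Slc39a4 (chromosome 15, 76612383 to 76618506) encodes ZIP4, the importer for dietary zinc in the gut. Its probe set 1451139_at had 6.74 and 6.17 in Hi, against 6.41 and 7.02 in Lo, so the groups overlapped, with a difference of -0.26 ± 0.32.

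Genes outside the 8 were tested in the same fit over all probe sets, and for them the adjusted p is limma's, with Benjamini-Hochberg adjustment over 45037 probe sets. The fit called 0 probe sets at an adjusted p of 0.05, or 0% (smallest adjusted p = 0.0839), against 18.0% with an unadjusted p under 0.05. Of 58 genes measured in 7 lists, 15 had an unadjusted p under 0.05, beside 20.2% over the brightest probe sets of all genes, and 0 passed after adjustment, also by the ordinary test without moderation. The differences given here are therefore values that did not pass. Beside the counts for each list below, Hi lay above Lo in 30.0% and below in 25.4% of the brightest probe sets of all genes, dim ones included. Of the 19 other Slc30 and Slc39 genes, all were measured, 13 were above the dim limit on at least 1 array and 0 passed. Their median difference was 0.14, against 0.03 over all genes, and 4 of the 19 differed by over 0.5 in either direction.

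Among the 5 other Slc30 genes above the dim limit on at least 1 array, Hi lay above Lo in 2 and below in 2. Slc30a4, which encodes a transporter that loads zinc into vesicles, had 10.27 and 10.12 in Hi, against 11.95 and 10.90 in Lo, a difference of -1.23 ± 0.40 (SE, adjusted p = 0.242 by limma). Slc30a5, which encodes a zinc transporter of the secretory pathway, differed by 0.29 (adjusted p = 0.379), and Slc30a2 never exceeded the dim limit. Among the 8 other Slc39 genes above the limit on at least 1 array, Hi lay above Lo in 4 and below in 2. Slc39a3, a plasma membrane importer gene, had 7.20 and 7.48 in Hi, against 8.36 and 8.61 in Lo, a difference of -1.15 ± 0.19 (adjusted p = 0.112), but -0.65 as the mean of its 2 probe sets. Slc39a13, whose product moves zinc within the secretory pathway, had 7.74 and 7.71 in Hi, against 8.45 and 8.36 in Lo, a difference of -0.68 (adjusted p = 0.137). Slc39a12 never exceeded the dim limit. Slc39a14, whose product resembles ZIP8 in carrying manganese and iron as well as zinc, differed by 0.25 (adjusted p = 0.497), and its difference from Slc39a8 was not tested.

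**Figure D3:**
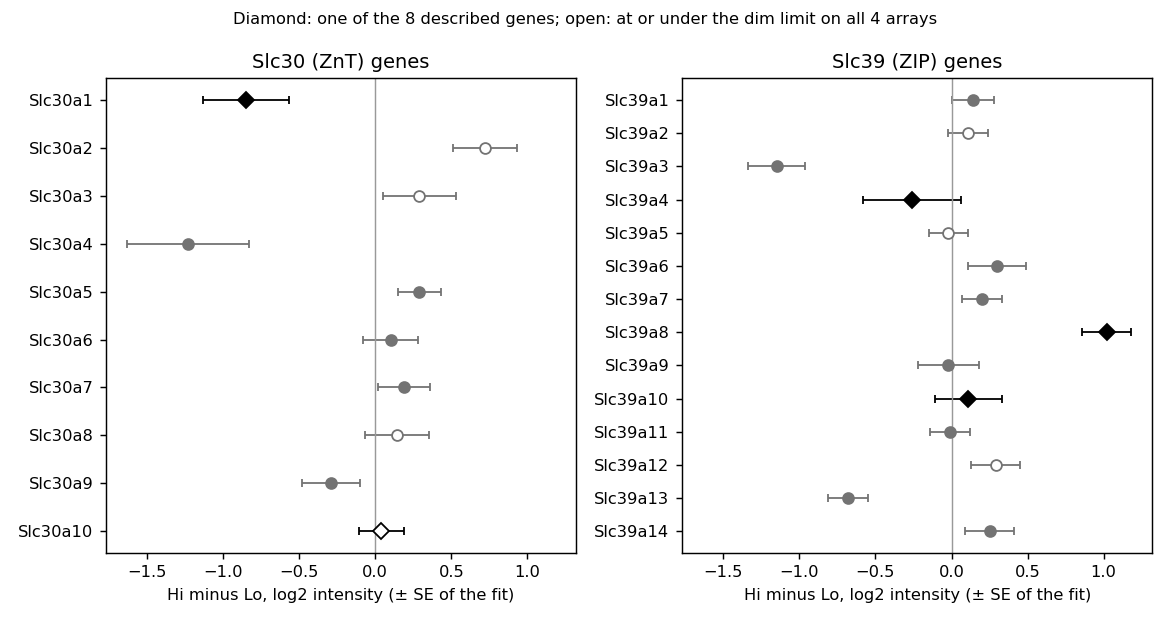
Difference of Hi minus Lo in log2 intensity for the brightest probe set of every Slc30 and Slc39 gene, with the standard error of the fit (2 arrays a group). Slc30a1 stands at -0.85 and Slc39a8 at 1.02, while Slc30a4 at -1.23 and Slc39a3 at -1.15 lie lowest.

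Mt1 and Mt2 stand in a cluster with Mt3 and Mt4 on chromosome 8, in the order Mt4, Mt3, Mt2, Mt1. Mt3, known from brain, had 5.76 and 5.74 in Hi, against 5.52 and 5.67 in Lo, a difference of 0.16 ± 0.14 (SE, adjusted p = 0.614 by limma). Mt4, known from stratified epithelium, never exceeded the dim limit. The nearest measured protein-coding genes around the pair, picked after the values of Mt1 and Mt2 were seen, showed no common direction. The nucleoporin gene Nup93, the next measured gene after Mt1, had 11.38 and 11.58 in Hi, against 10.12 and 10.59 in Lo, a difference of 1.13 ± 0.22 (adjusted p = 0.138). Nlrc5, an activator of MHC class I genes, differed by -0.46 (adjusted p = 0.241), and Bbs2, Herpud1 and Ogfod1 by -0.06, -0.08 and -0.23, with overlapping groups. Slc12a3 was at or under the dim limit.

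**Figure D4:**
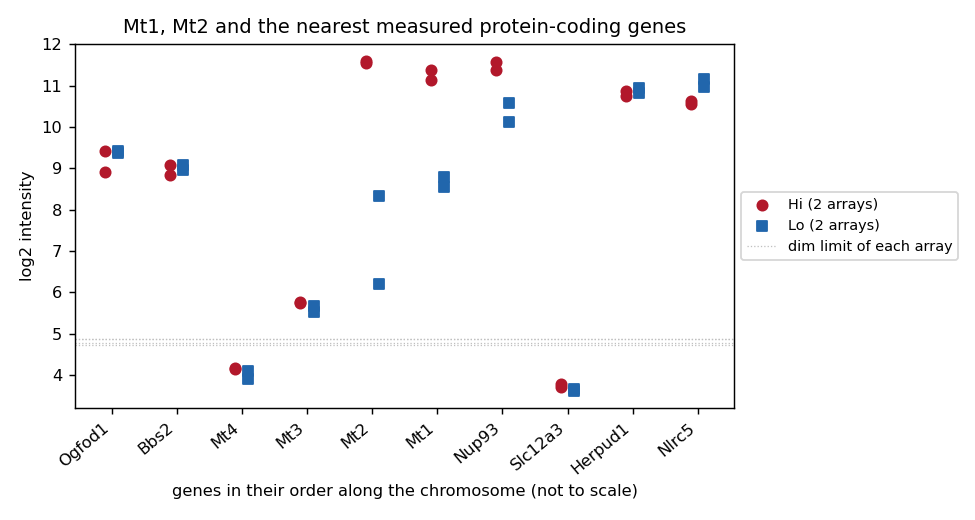
Log2 intensity on the 2 Hi and 2 Lo arrays for Mt1, Mt2 and the 4 measured protein-coding genes nearest on each side, in their order along chromosome 8 and not to scale. Mt2 and Mt1 show the widest separation between the groups, Nup93 differs by 1.13, and Mt4 and Slc12a3 lie under the dim limits.

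Other genes described as MTF1 targets differed in both directions. Of 6 measured, 5 were above the dim limit on at least 1 array, and among these Hi was above Lo in 3 and below in 2, with 0 past the adjusted threshold. Gclc, a subunit of the enzyme that starts glutathione synthesis, had 9.76 and 9.62 in Hi, against 9.12 and 8.96 in Lo, a difference of 0.65 (adjusted p = 0.161 by limma). Ndrg1, a stress-responsive gene, differed by -0.43 (adjusted p = 0.30). Hamp, a gene of the liver, was at or under the dim limit.

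In the copper and manganese list, Hi lay above Lo in 8 of 13 genes and below in 2, with 0 past the threshold. Slc40a1, the iron exporter gene, had 10.44 and 10.34 in Hi, against 8.82 and 8.41 in Lo, a difference of 1.77 ± 0.20 (SE, adjusted p = 0.0936 by limma). Atp7b, the copper pump gene, had 8.92 and 9.43 in Hi, against 6.52 and 7.31 in Lo, a difference of 2.26 (adjusted p = 0.109), but 0.98 as the mean of its 3 probe sets.

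Of 9 genes listed for the glucocorticoid response, 1 had Hi above Lo and 4 had Hi below, by their brightest probe sets. Their median difference was -0.38, with 0 past the threshold. The 1 above was Fkbp5, which differed by 0.54 (adjusted p = 0.170 by limma), or 0.68 as the mean of its 3 probe sets. Klf9 differed by -1.17 on its brightest probe set but by -0.2 as the mean of its 7. The part of glucocorticoids in the values of Mt1 and Mt2 was not tested. Zfp36, which marks messenger RNAs for decay, had 10.68 and 10.80 in Hi, against 11.72 and 11.82 in Lo, a difference of -1.03 (adjusted p = 0.0981 by limma). Dusp1, a phosphatase of MAP kinases, had 11.63 and 11.77 in Hi, against 12.63 and 12.67 in Lo, a difference of -0.95 (adjusted p = 0.102). Of 9 oxidative stress genes, 8 were above the dim limit on at least 1 array, with Hi above Lo in 2 of these and below in 2. The median difference of the 9 was 0.01, and 0 passed the threshold. Srxn1, which repairs peroxiredoxins, differed by -1.05 (adjusted p = 0.200), and Gclm, the other glutathione enzyme subunit, by 0.48 (adjusted p = 0.285).

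**Figure D5:**
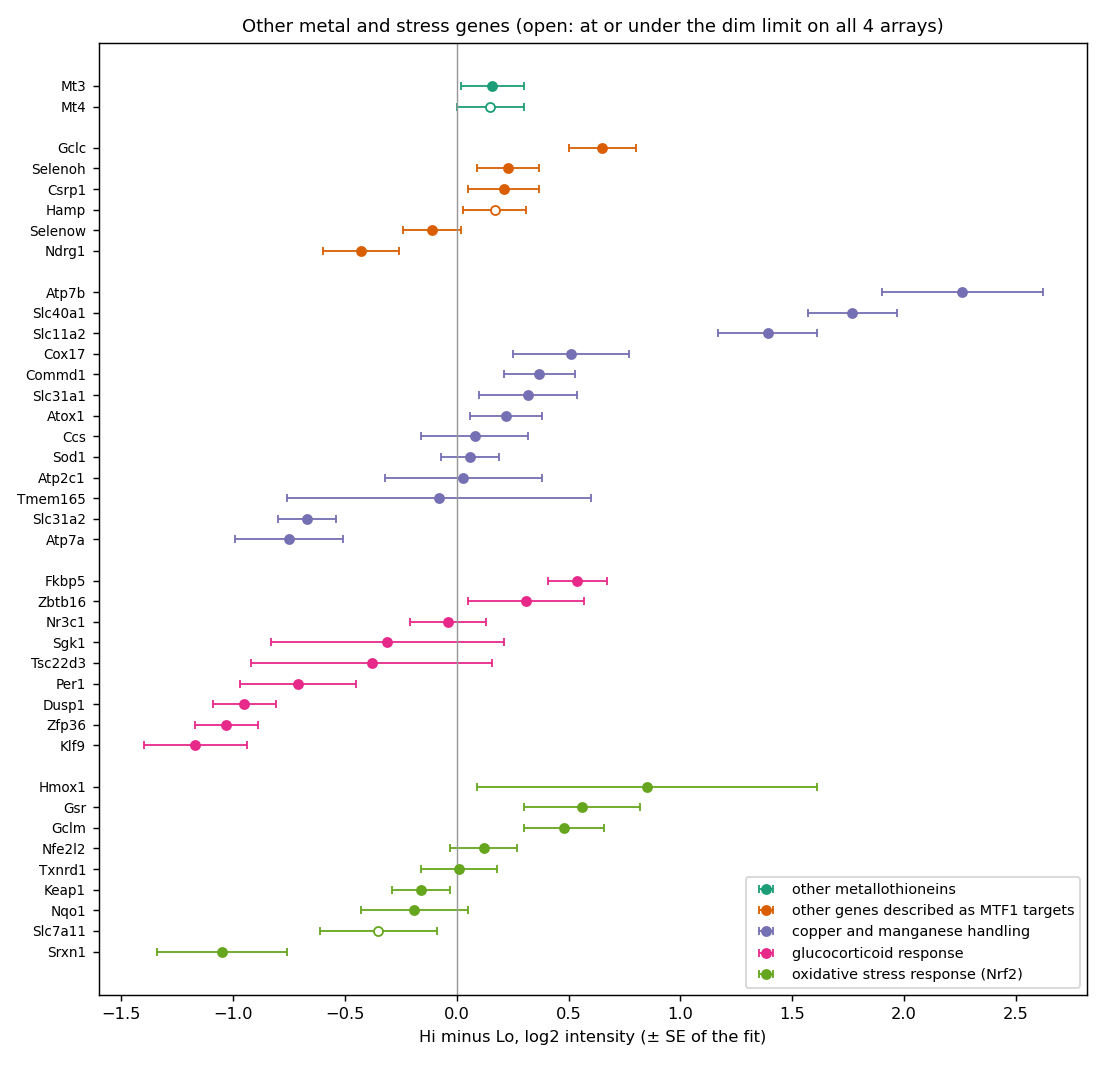
Difference of Hi minus Lo in log2 intensity, with the standard error of the fit, for the genes of 5 lists outside the 8. Each gene stands by its brightest probe set. Atp7b at 2.26 and Slc40a1 at 1.77 stand highest. The glucocorticoid response genes lie mostly below 0, with a median of -0.38, and Fkbp5 lies above at 0.54.

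The patterns most like those of the members were sought over the 4 arrays, after each gene was centred on its own mean, among other named genes above the dim limit on at least 1 array, 12515 for Slc30a10 and 12514 for each other member. For Mt1 the nearest were the replication gene Mcm10 and the sphingomyelin synthase gene Sgms2, with root mean square differences of 0.104 and 0.105 on the log2 scale, and 15 genes lay within 0.25. For Mt2 the nearest was the red cell membrane gene Ermap at 0.391, followed by Paqr9 at 0.420, which was above the dim limit on 3 arrays, and 0 genes lay within 0.25. Ermap had 11.29 and 11.89 in Hi, against 5.84 and 7.51 in Lo, so it shared the low and spread Lo values of Mt2. For Slc39a8 the nearest were Diaph3 at 0.031 and Ubxn11 at 0.032, with 679 genes within 0.25, and for Slc30a1 Adgra3 at 0.019 and Sh3pxd2a at 0.038, with 716. For the brightest Mtf1 probe set they were Dld at 0.047 and Ccdc120 at 0.062, which repeat the wide gap between its Lo arrays. Slc39a4 was nearest to Ikbke and Wfs1 and Slc39a10 to Ehd1 and Tsg101, and for the dim Slc30a10 nearly flat profiles such as Aqp5 and Kif23 came first. The 4 arrays give short patterns, and such likeness is a description of these arrays.

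Marker genes and signs of RNA quality were read on the same arrays. Myc itself had 12.41 and 12.41 in Hi, against 11.70 and 10.64 in Lo. Of the 4 LSK genes measured, Slamf1, a marker of stem cells, averaged 8.11 ± 0.97 in Hi and 9.78 ± 0.30 in Lo (SD of 2 arrays in each group), with both Hi arrays below both Lo arrays and a difference of -1.68 ± 0.52 (SE, adjusted p = 0.235 by limma). Kit and Flt3 overlapped between the groups, Cd34 differed by 0.11, and Ly6a, which encodes Sca1, had no probe set of its own. Erythroid markers were brighter in both Hi arrays in 8 of 11 genes and dimmer in 1, their summed intensity was 29989 to 34278 in Hi and 15686 to 16127 in Lo, and no array showed Alas2 above background. Granulocyte and monocyte markers were brighter in 6 of 7 and dimmer in 1, with a summed intensity of 52404 to 57143 in Hi and 25148 to 27259 in Lo. Mast cell and basophil markers were brighter in Hi in 2 of 7, dimmer in 2 and overlapping in 3, so they did not differ in one direction. Hdc at 3.17 and Mcpt8 at 2.49 were the brighter ones and Gzmb at -1.67 and Cma1 at -1.11 the dimmer ones, and the sum was 4433 to 4690 in Hi and 1697 to 1913 in Lo. Lineage markers were brighter in Hi in 1 of 6, Cd4 at 0.35, and dimmer in 2, Cd8a at -1.19 and Ms4a1 at -0.79, and their sums overlapped, with 663 to 781 in Hi and 740 to 997 in Lo. Of 7 stroma and endothelium markers, Cdh5 and Lepr were under the dim limit on all arrays, Emcn at -1.03 and Kdr at -0.65 were dimmer in Hi, and Pecam1, Cxcl12 and Col1a1 overlapped at 0.47, 0.73 and -0.16. Their sum was 1440 to 1457 in Hi and 2052 to 2059 in Lo. Emcn weighs most in this sum, as the brightest of the 7 on every array. It had 9.62 and 9.39 in Hi, against 10.47 and 10.60 in Lo. Of these marker genes 0 passed the adjusted threshold. For Gapdh, the 3′ control probe set exceeded the 5′ one, a sign of RNA quality, on the log2 scale by 0.63 and 0.66 in Hi, against 0.74 and 0.78 in Lo. For Actb it did so by 0.60 and 0.55 in Hi, against 0.84 and 0.57 in Lo, where the groups overlapped and Lo replicate 1 stood apart. The part of these markers and of RNA quality in the differences of Mt1, Mt2, Slc39a8 and Slc30a1 was not tested.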

How the data were processed

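Each probe set has 1 linear intensity per array in the deposited table, made by the authors with RMA per the submitters' processing notes; its software and version are not given in the sources used here. RNA was amplified from 5 ng before labelling, per the labels' protocols, which can compress or spread differences. Intensities were log2-transformed with an offset of 0. Of 45101 probe sets, 64 controls were left out. The platform annotation gave 1 gene to 34945 of the rest, several to 932 and none to 9160, and 34741 matched the RefSeq gene table by Entrez identifier. A gene stands by its brightest probe set unless stated.

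Hi minus Lo was fitted by lmFit and eBayes of limma 3.58.1 under R 4.3.3 (two-sided, no block, 2 residual degrees of freedom) and tested on simulated data. The members, the lists and the tests were chosen with earlier results of these data known. Genes outside the members are named by smallest unadjusted p among genes without overlap, 3 for each transporter family and 2 for each other list, plus nearest patterns; the neighbours of Mt1 and Mt2 and further genes were picked after their values were seen. The number of arrays limits the precision.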

Additional observations from a re-analysis of the deposited data

How the results depend on the processing

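Quantile normalization, a shift of the arrays to one median, cyclic loess, an offset of 16, a dim filter, averaging all probe sets of each gene, a replicate block, other variance priors and leaving out each array were tried. Of 176 recomputed values over the 17 member probe sets, 165 moved by less than the SD between replicates and 11 by more. Much of this was fixed in advance. Leaving out 1 array cannot shift a difference by more than this SD, and the dim filter and the replicate block return the same difference. Leaving out an array also cannot turn the sign of a probe set whose groups do not overlap. The 11 came from other scaling, the offset or the average over probe sets, and these settings turned no such sign. Among probe sets whose groups overlapped, leaving out single arrays gave -1.09 to 0.49 for the brightest of Mtf1, -0.56 to 0.05 for Slc39a4, -0.12 to 0.33 for the brighter of Slc39a10 and -0.06 to 0.14 for the brighter of Slc30a10. Averaging all probe sets of each gene called 252 genes higher and 276 lower out of 18193, the share to set beside the list count below. The dim filter, which also left fewer features, called 0 in either direction, and the reason for the added calls was not tested. Among those called were 2 of the 58 other zinc, metal and stress genes, Zfp36 (adjusted p = 0.0420 by limma) and Dusp1 (adjusted p = 0.0468 by limma). The difference of each was unchanged at -1.03 and -0.95, since each has 1 probe set. With the average over probe sets, 6 of the 8 genes had Hi above Lo, 1 of them Slc30a10, under the dim limit on all arrays, and 1 had Hi below. Over all genes averaged alike the shares were 31.9% above and 23.4% below. The ordinary test without moderation called 1 probe set lower. Leaving out single arrays, 11 to 13 of the 17 member probe sets had Hi above and 2 to 3 had Hi below, beside 40.4% to 43.8% above and 31.3% to 36.0% below over all probe sets with the same arrays left out. The replicate numbers are shared by the groups, but no label says what they mark; the differences between replicates correlated at r = 0.072 over probe sets between Hi and Lo, and with the replicate block 0 probe sets were called higher and 0 lower, as without it. With 2 arrays a group and signal near the dim limit, Slc30a10 and the dimmer probe sets of Mt1 and Slc39a8 allow little precision.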
